A study of Mus musculus with 6 samples.

Results

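The interleukin-1 (IL-1) family is a group of cytokines and receptors of inflammation, followed here through 10 genes in mouse ear skin on which ticks had fed. These are the ligands Il1a, Il1b, Il18 and Il33, the antagonist Il1rn, the receptor chains Il1r1, Il1r2, Il1rap and Il1rl1, and the protease gene Casp1. They were the rows of the deposited table that carry those symbols, and all 10 were found among its 15667 genes. RNA-seq libraries came from adiponectin-deficient mice (Adipo-/-, KO, n = 3) and their littermates with an intact gene (Adipo+/+, WT, n = 3). All were female and aged 7 to 8 weeks, from the stock B6;129-Adipoqtm1Chan/J, and the KO mice were homozygous for its targeted allele, which removes the gene from the whole body and not from fat alone. Each of the 6 mice carried 10 Ixodes scapularis nymphs, and after 48 h a 3.5 mm punch of bitten ear was taken, so every library is of bitten skin. Unbitten skin was not analysed here. That each library is a separate mouse is stated in the methods of the study.

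IL-1 alpha and IL-1 beta bind the same signalling receptor, IL1R1, which needs the accessory chain IL1RAP to pass the signal through MyD88 and IRAK kinases to NF-kappaB. The pathway is held back by the receptor antagonist (Il1rn) and by the decoy receptor IL1R2, which binds ligand without signalling. IL-1 beta and IL-18 are made as precursors that caspase-1 cleaves in an inflammasome, whereas IL-33 is stored in the nuclei of epithelial and endothelial cells and acts on ST2, the product of Il1rl1, which is abundant on mast cells and type 2 lymphoid cells. In skin, keratinocytes hold much of the IL-1 alpha, IL-18, IL-33 and antagonist, and infiltrating neutrophils and macrophages are major sources of IL-1 beta.

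The members lie in groups on the mouse genome (GRCm38). Il1a (chromosome 2, 129299610 to 129309972) and Il1b (chromosome 2, 129364578 to 129371139) are both on the minus strand within 71.5 kb, with Il1rn farther off on the same chromosome (24336860 to 24351491, plus strand). On chromosome 1, 3 receptor genes share 381 kb of the plus strand, namely Il1r2 (40084714 to 40125230), Il1r1 (40225080 to 40316177) and Il1rl1 (40429570 to 40465414). Il18 (chromosome 9, 50554700 to 50581841), Casp1 (chromosome 9, 5298517 to 5307281), Il33 (chromosome 19, 29925113 to 29960717) and Il1rap (chromosome 16, 26581705 to 26730128) are on the plus strand. Il1rap lies 3.42 Mb from Adipoq (chromosome 16, 23146536 to 23157968), with 12 listed genes between them. By its name the stock is of mixed strain background, so for Il1rap an effect of the genotype and one of strain sequence linked to the allele cannot be told apart. Whether the authors counted reads by strand is not stated. Il1b overlaps the antisense gene Il1bos, Il1a the plus-strand transcript Gm14023, and Il18 the genes Bco2 and Tex12 of the opposite strand. Il1r2 overlaps the antisense gene Gm16894 and the same-strand Gm37347, Il1rap the antisense gene Gm20319, and Il1r1 the same-strand Gm38070, so the values of these 6 members can hold reads of their partners.

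The start regions of 3 members are shown because their levels behaved most differently, as described below. Il1b varied most between libraries, Il1a is its neighbour and partner ligand, and Il1rap had the lowest spread within groups. Each line gives 250 bases before the annotated transcription start and the 30 bases from it, read in the direction of the gene (RefSeq, GRCm38.p6). Capitals mark the letters TATAAA and, in Il1b, bases 11 to 30 of the transcript, to which the forward qPCR primer of the study is identical.
Il1b, chr2:129371110-129371389, minus strand: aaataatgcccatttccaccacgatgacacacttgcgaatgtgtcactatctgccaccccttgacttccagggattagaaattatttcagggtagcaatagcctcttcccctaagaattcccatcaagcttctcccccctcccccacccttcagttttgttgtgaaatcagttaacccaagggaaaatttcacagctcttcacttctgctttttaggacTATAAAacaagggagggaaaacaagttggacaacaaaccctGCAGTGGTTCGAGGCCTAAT
Il1a, chr2:129309943-129310222, minus strand: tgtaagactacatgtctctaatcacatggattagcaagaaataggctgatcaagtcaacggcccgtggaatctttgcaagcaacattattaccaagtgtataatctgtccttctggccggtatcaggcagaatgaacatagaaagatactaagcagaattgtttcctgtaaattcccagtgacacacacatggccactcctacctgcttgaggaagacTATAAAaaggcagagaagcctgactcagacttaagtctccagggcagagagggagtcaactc
Il1rap, chr16:26581455-26581734, plus strand: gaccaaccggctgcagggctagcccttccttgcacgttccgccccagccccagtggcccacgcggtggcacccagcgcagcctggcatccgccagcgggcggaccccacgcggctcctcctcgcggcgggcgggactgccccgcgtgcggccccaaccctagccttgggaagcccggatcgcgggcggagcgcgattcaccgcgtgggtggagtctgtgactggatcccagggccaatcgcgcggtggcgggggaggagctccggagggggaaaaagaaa

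The letters TATAAA begin 31 bases before the start of Il1b and 32 bases before that of Il1a, and are absent from the Il1rap window. They occurred on either strand in 13.6% of 32851 RefSeq start windows of 300 bases, and in 6 of the 15 windows of the members. These windows belong to 5 of the 10 members (Il1a, Il1b, Il1rn, Il18 and Il33), with Il1rn and Il18 matched on the opposite strand only. The GC content of the 300-base window was 72% in Il1rap, 45.7% in Il1b and 44.7% in Il1a, beside a median of 52.7% over all windows. The NF-kappaB consensus was matched on either strand in 1 of the 15 windows (Il1r1), beside 8.46% of all windows. For the AP-1 letters TGANTCA this was 2 of 15 (Il1a, Il1rn), beside 7.81%. The C/EBP letters TTNNGNAA were in 10 of 15 (6 members), beside 40.7%, and the PU.1 letters GAGGAA in 4 of 15 (4 members), beside 28.3%. Several members have more than 1 annotated start, 15 windows in all, and windows of Il1rn overlap each other. A match describes the letters of a window only.

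Il1b and Il18 were also targets of qPCR in the study, and the primers show which transcripts that assay could read.
Il1b forward: gcagtggttcgaggcctaat
Il1b reverse: gctgcttcagacacttgcac
Il18 forward: gactcttgcgtcaacttcaagg
Il18 reverse: caggctgtcttttgtcaacga
In GENCODE M21 the Il1b pair spans bases 11 to 86 of the transcript, a product of 76 bases found in 2 of 3 annotated transcripts. The Il18 pair gives a product of 169 bases, found in all 4 annotated transcripts. By qPCR the paper reported significantly higher Il1b expression in WT than in KO bitten skin, with more mice per group than were sequenced. RNA-seq values are sums over all transcripts of a gene, so soluble and membrane forms of Il1rl1 and Il1rap, and secreted and intracellular forms of Il1rn, are not separated.

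The implied depth was 3403706 to 6591523 reads per library, and at these depths 3 reads correspond to 0.455 to 0.881 counts per 1000000 reads (CPM). No pair of libraries was a duplicate, since chi-square per degree of freedom was 8.26 to 42.4 over the 15 pairs. Adipoq was at 30.5, 63.7 and 49.6 CPM in the WT libraries (replicates 1, 2 and 3 in order, as throughout) and at 0, 0.560 and 0 CPM in the KO replicates, so that all 6 libraries matched their genotype labels. Markers of skin were present throughout, with summed interfollicular keratinocyte markers (14 of 15 listed) at 34089 to 46567 CPM in WT against 43411 to 60420 CPM in KO. Libraries of the same group were unlike each other in hair follicle and neutrophil genes. The hair follicle score, the mean log2(CPM + 0.5) of its 20 genes, was 0.0040, 0.27 and 8.54 in WT and 4.89, 6.98 and 4.12 in KO replicates 1, 2 and 3, with 13 of the 20 genes at 0 in at least 1 library. WT replicates 1 and 3 were at opposite ends of both scores, and the differences, medians and levels that move most with either are also given without it.

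No member differed between KO and WT skin by the test used. Values were compared as log2(CPM + 0.5) with limma, two-sided, over 14306 genes, and all 10 members passed the filter of a mean of 1 CPM. Of the 10 members, 0 reached an unadjusted p below 0.05 in either direction, against 2.88% of all genes tested (1.82% lower and 1.06% higher in KO). These shares stand for 260 lower and 152 higher genes, and that split became 215 and 210 when libraries were rescaled by median of ratios and 193 and 232 when they were quantile normalized, with no member changing sign. None passed after Benjamini-Hochberg adjustment over all genes (adjusted p = 0.998 for each in limma), where 0.014% of all genes did. With limma voom on implied reads the count was also 0 of 10 at either threshold. Among all 14306 genes voom gave 295 lower and 162 higher at an unadjusted p below 0.05, and 0 lower and 1 higher after adjustment. The WT and KO values overlapped in all 10, whereas they did not overlap in 7.84% of all genes. The fitted difference was below 0 in 5 members and above 0 in 5, with a median of -0.014 beside -0.032 over all genes tested. In a punch of whole skin, fewer cells of a type and less RNA per cell cannot be told apart.

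**Figure D1:**
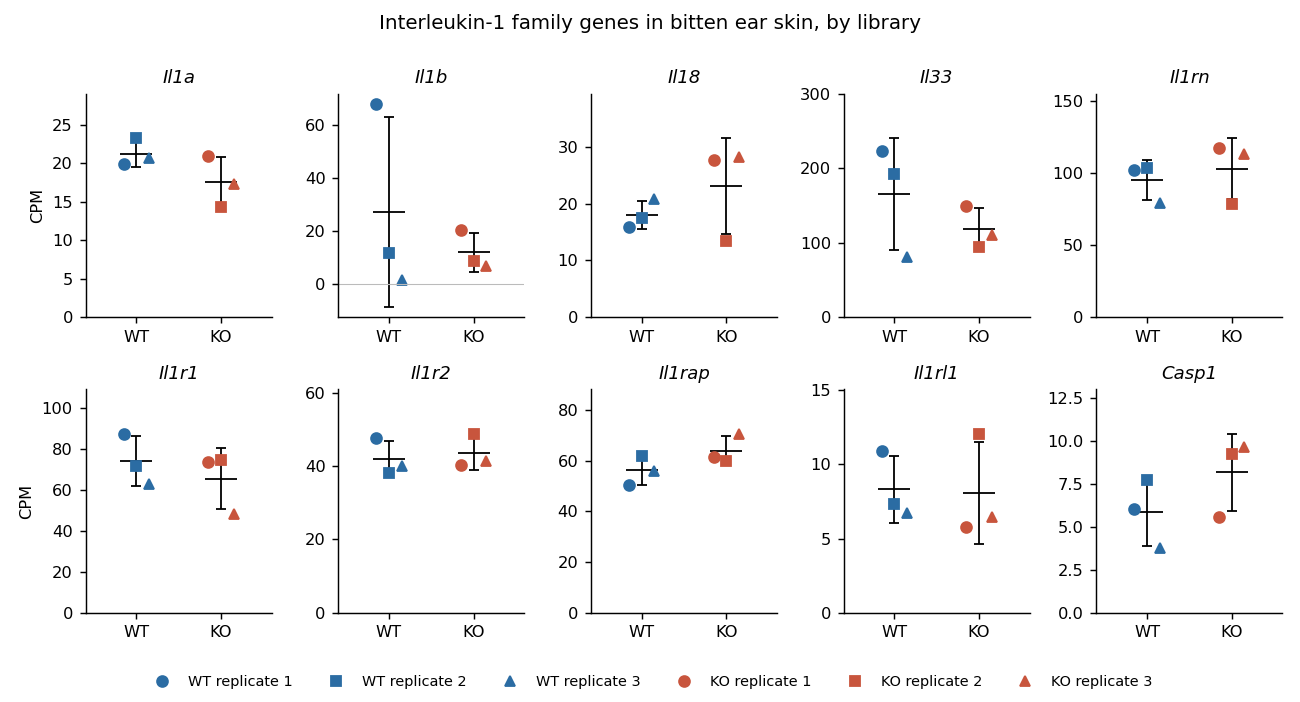
Deposited level (CPM) of each of the 10 genes in every library, WT in blue and KO in red, with replicate numbers by marker shape; bars are the group mean and SD (n = 3), and the lower SD bar of Il1b in WT extends below 0. The WT and KO points overlap in every panel, and Il1b has the widest scatter, from 1.48 to 68.0 CPM within WT.

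Among the ligands, Il1a, the alarm cytokine held in keratinocytes, was nearly even in WT skin. It was at 19.8, 23.2 and 20.6 CPM in WT and at 20.9, 14.3 and 17.3 CPM in KO. KO replicates 2 and 3 lay below all WT libraries, and KO replicate 1 lay among them. The log2 difference (KO minus WT) was -0.28 (SE 0.18), with a 95% interval from 0.612- to 1.104-fold (limma, unadjusted p = 0.163). It kept its sign whichever library was left out (-0.42 to -0.15).

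Il1b, the inflammasome-dependent ligand, showed the opposite behaviour. Its values of 68.0, 11.8 and 1.48 CPM in WT rest on 281, 58 and 9 implied reads, and those of 20.3, 8.69 and 6.76 CPM in KO on 134, 31 and 23. The highest and the lowest of the 6 libraries were both WT, 45.8-fold apart, while the KO libraries spanned 3.01-fold. All KO values lay between the highest and lowest WT values. Its log2 difference was -0.089 (SE 1.12), and its 95% interval, 0.157- to 5.64-fold, leaves both a large decrease and a large increase within the error. Its sign followed single libraries, from 1.18 without WT replicate 1 to -1.38 without WT replicate 3, with 0.051 and 0.22 on leaving out KO replicates 2 and 3.

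Il18, a constitutive keratinocyte cytokine, was at 15.98, 17.5 and 20.8 CPM in WT and at 27.8, 13.5 and 28.2 CPM in KO. KO replicates 1 and 3 lay above all WT libraries and KO replicate 2 below them. Its log2 difference was 0.28 (SE 0.29), with an interval of 0.761- to 1.94-fold. Without KO replicate 2 the difference was 0.62 at an unadjusted p of 0.012 in limma, which did not pass the adjustment (adjusted p = 0.998), and without KO replicates 1 and 3 it was 0.12 and 0.10. Keratinocyte markers were also highest in these libraries, the score of the 14 markers being 10.4, 10.6 and 10.4 in WT and 10.7, 10.4 and 10.8 in KO. Their part in the level of Il18 was not tested.

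Il33, a nuclear alarmin of barrier cells, was the most abundant ligand per length. It was at 223, 192 and 80.6 CPM in WT and at 150, 94.7 and 110 CPM in KO. The WT libraries held both the highest values and the lowest. The log2 difference was -0.38 (SE 0.36), with an interval of 0.428- to 1.38-fold (limma, unadjusted p = 0.328). WT replicate 3 decided its size: without it all KO libraries lay below both remaining WT libraries, and the difference was -0.83 (limma, unadjusted p = 0.00206, adjusted p = 0.307). Leaving out WT replicates 1 and 2 in turn gave -0.10 and -0.21, and leaving out KO replicates 1 and 2 gave -0.56 and -0.23. A fit that held the hair follicle score as a covariate gave -0.00038 (SE 0.17).

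**Figure D2:**
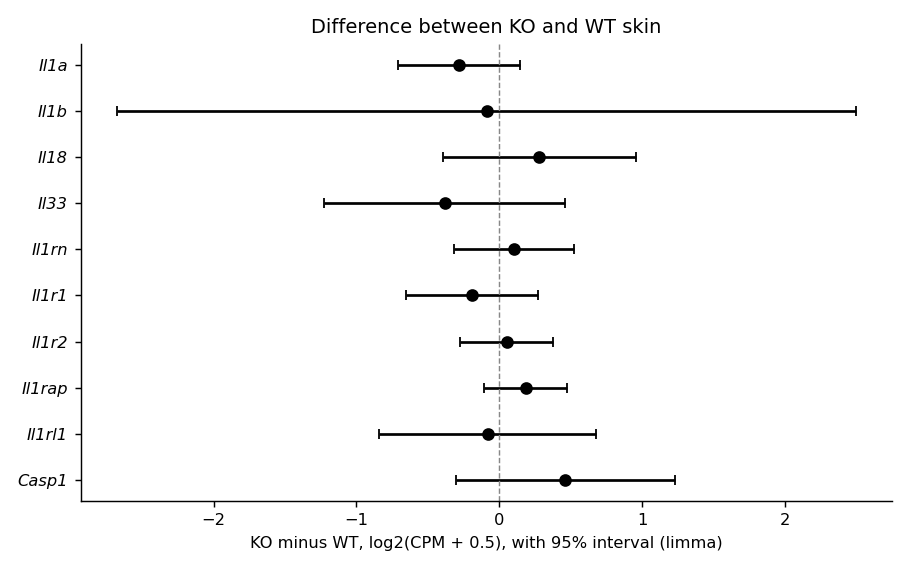
Log2 difference between KO and WT skin (KO minus WT) for each gene, with its 95% interval from limma (3 against 3 libraries); the dashed line marks 0. All 10 intervals include 0, from the narrow one of Il1rap (-0.11 to 0.48) to that of Il1b (-2.67 to 2.50).

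The antagonist and the decoy varied less within groups than Il1b, Il18 and Il33, though Il1rn varied more than Il1a. Il1rn, which blocks IL1R1, was at 102, 104 and 79.1 CPM in WT and at 117, 78.7 and 113 CPM in KO. The lowest library of each group stood at nearly the same level. Between the groups the log2 difference was 0.10 (SE 0.18), with -0.022 on leaving out WT replicate 3 and 0.28 on leaving out KO replicate 2. Il1r2, the decoy receptor, was at 47.7, 38.2 and 40.1 CPM in WT and at 40.4, 48.8 and 41.4 CPM in KO. Its 6 values lay within 1.27-fold of each other. Its log2 difference was 0.052 (SE 0.14), with an interval of 0.827- to 1.30-fold, and changed sign without WT replicate 2 (-0.011) or KO replicate 2 (-0.032).

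Of the signalling chains, Il1r1, the receptor for both IL-1 ligands, was at 87.1, 71.8 and 62.8 CPM in WT and at 73.7, 74.3 and 48.2 CPM in KO. KO replicate 3 lay below all others, and the other KO libraries lay among those of WT. The log2 difference was -0.19 (SE 0.20), and 0.014 without KO replicate 3. Il1rap, the accessory chain shared by the IL-1, IL-33 and IL-36 receptors, was at 50.6, 62.0 and 56.1 CPM in WT and at 61.3, 60.0 and 70.5 CPM in KO. WT replicate 1 was lowest and KO replicate 3 highest, 1.39-fold apart. The log2 difference was 0.18 (SE 0.13), with the narrowest interval of the 10, 0.927- to 1.39-fold (limma, unadjusted p = 0.184).

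Il1rl1, which encodes the IL-33 receptor ST2, was at 10.9, 7.32 and 6.76 CPM in WT and at 5.76, 12.05 and 6.46 CPM in KO, on 22 to 45 implied reads per library. KO libraries held both the highest value and the lowest. A log2 difference of -0.080 (SE 0.33) changed sign without WT replicate 1 (0.12), KO replicate 1 (0.11) or KO replicate 3 (0.036). Casp1, the protease that matures IL-1 beta and IL-18, was at 6.05, 7.73 and 3.79 CPM in WT and at 5.61, 9.25 and 9.70 CPM in KO, on 23 to 38 reads. KO replicates 2 and 3 lay above all WT libraries and KO replicate 1 did not. Its log2 difference was 0.46 (SE 0.33), the highest of the 10, with an interval of 0.812- to 2.34-fold (limma, unadjusted p = 0.198), and ranged from 0.21 to 0.70 over the 18 alternatives to the fit.

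To set the members beside each other, their levels were divided by the length of the longest annotated transcript (GENCODE M21), since longer transcripts give more reads. Il33 was highest at 55.8 CPM per kb (mean over 6 libraries), followed by Il1rn at 38.7, Il1r2 at 30.1 and Il18 at 23.3 CPM per kb. A middle group held Il1b at 14.4, Il1rap at 13.3, Il1r1 at 11.97 and Il1a at 9.81 CPM per kb. The place of Il1b rested on WT replicate 1, without which its mean was 7.24 CPM per kb, below that of Il1a (9.76). Casp1 at 4.69 and Il1rl1 at 1.55 CPM per kb were lowest. The last steps were clear in every library, with Il1a above Casp1 in 6 of 6 and Casp1 above Il1rl1 in 6 of 6. Other neighbours did not keep their order in all libraries: Il33 exceeded Il1rn, Il1rn exceeded Il1r2, Il18 exceeded Il1b, Il1rap exceeded Il1r1 and Il1r1 exceeded Il1a in 5 of 6, Il1r2 exceeded Il18 in 4, and Il1b exceeded Il1rap in 2. Per kb of merged exons, Il33 stayed first, Casp1 and Il1rl1 stayed last, Il1rn moved from the second place to the fourth and Il1rap from the sixth to the eighth. The antagonist and the decoy were thus both above both IL-1 ligands in the means, and Il33 RNA was well above that of its receptor.

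**Figure D3:**
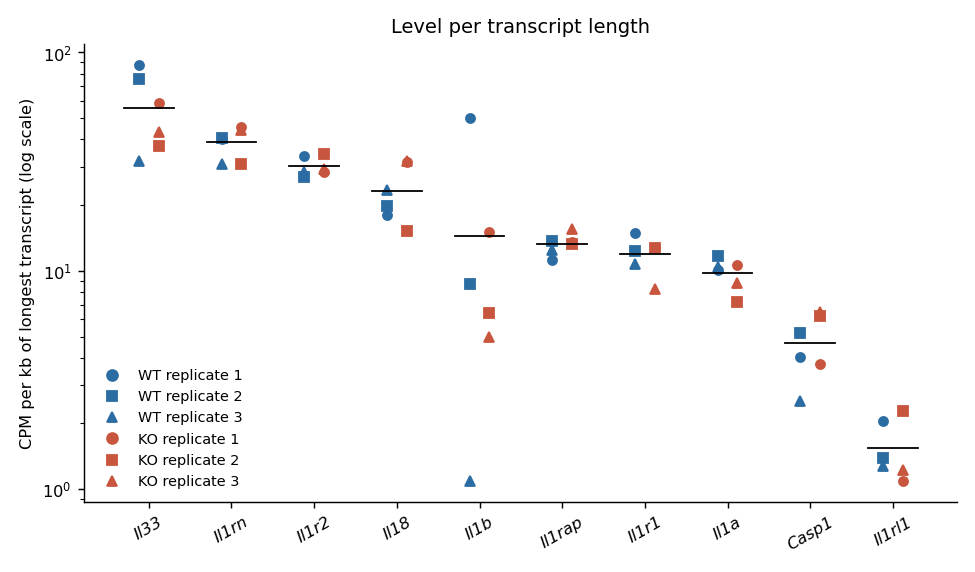
Level of each gene in CPM per kb of its longest annotated transcript, on a log scale, with a point per library and a line at the mean of the 6 libraries. The order runs from Il33 (55.8) to Il1rl1 (1.55), and the points of Il1b span those of most other members.

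The balance of agonist and inhibitor was then compared within libraries. The log2 ratio of Il1rn to Il1b was 0.58, 3.08 and 5.33 in WT against 2.50, 3.11 and 3.96 in KO. Antagonist RNA exceeded Il1b RNA in CPM in all 6 libraries, least in WT replicate 1, and the groups overlapped (difference 0.19, two-sided exact permutation p = 0.9). Per kb of transcript this order did not hold in WT replicate 1. There Il1b was at 50.2 CPM per kb, whereas Il1rn reached at most 45.8 CPM per kb in any library. The log2 ratio of the decoy Il1r2 to Il1r1 was -0.86, -0.90 and -0.64 in WT and -0.86, -0.60 and -0.22 in KO (difference 0.24, exact permutation p = 0.2). The log2 ratio of Il1a to Il1b ran from -1.75 in WT replicate 1 to 3.41 in WT replicate 3, with KO libraries at 0.041 to 1.30 (difference -0.19, exact permutation p = 0.9). KO minus WT differences were 0.30 for Il1rl1 to Il33 and -0.40 for Il18bp, a secreted inhibitor of IL-18, to Il18 (exact permutation p = 0.6 each). Il18bp rests on 4 to 11 implied reads per library, so its ratio is limited by depth. Over these 5 ratios the Benjamini-Hochberg adjusted p was 0.9 for each, and 3 against 3 libraries cannot give an exact p below 0.1. Left-out libraries turned the sign of 3 of the 5: the Il1rn to Il1b difference was -1.01 without WT replicate 1 (-0.19 without KO replicate 3), that of Il1rl1 to Il33 -0.16 without KO replicate 2, and that of Il1a to Il1b 1.08 without WT replicate 3 (0.12 without KO replicate 1).

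The members differed most in how far libraries of a group were spread. The residual SD of log2(CPM + 0.5) was 1.89 for Il1b, higher than in 98.8% of the 14306 genes tested, and it was 1.26 without WT replicate 1 and 1.203 without WT replicate 3. Next came Il33 at 0.61 (percentile 89.3; 0.29 without WT replicate 3), Il1rl1 at 0.45 (79.3), Casp1 at 0.44 (78.3) and Il18 at 0.44 (78.0). Il1r1 at 0.30 (59.3), Il1rn at 0.27 (53.6) and Il1a at 0.21 (38.3) were near the middle of all genes, and Il1r2 at 0.16 (24.3) and Il1rap at 0.14 (18.4) were among the steadier ones. Over all 6 libraries, groups aside, Il1r2 had the narrower range of the last pair. Within WT the SD of Il1b was 2.56 on the log2 scale and that of Il1a, its genomic neighbour, 0.11.

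The genes whose pattern over the 6 libraries was nearest to that of Il1b were found by the root mean square (RMS) difference of log2 values, each gene centred on its own mean. They were Acod1, which makes itaconate in activated myeloid cells (0.389), Hdc, the enzyme that makes histamine (0.393), the calprotectin genes S100a9 (0.397) and S100a8 (0.427), and the myeloid lectin Clec4d (0.436). S100a9 was at 273, 69.2 and 4.62 CPM in WT and at 80.4, 24.7 and 20.3 CPM in KO. Hdc was at 49.9, 9.36 and 1.65 CPM in WT and at 9.25, 8.69 and 5.88 CPM in KO. Both, like Il1b, were highest in WT replicate 1 and lowest in WT replicate 3, and neither reached an unadjusted p below 0.05 in limma (0.763 for S100a9 and 0.764 for Hdc).

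Markers of neutrophils moved with Il1b across libraries. Of the 21 genes of that list, 16 were in the table and 15 were tested, 14 of them highest in WT replicate 1 and 14 lowest in WT replicate 3, where 18.01% and 18.2% of all tested genes had these positions. Their summed level was 83.8 to 816 CPM in WT against 162 to 340 CPM in KO, and the mean log2 score was 4.94, 3.41 and 0.98 in WT and 3.55, 2.49 and 2.55 in KO. Mmp8 and Stfa2l1 were at 0 in at least 1 library, and the defining genes Ly6g, Ngp, Ltf and Camp were not analysed here. Acod1, Clec4d, S100a8 and S100a9 belong to the list. The mast cell score, by contrast, was 3.33, 3.93 and 3.58 in WT and 3.08, 3.81 and 3.56 in KO. Of its 11 genes 0 were highest in WT replicate 1 and 1 was lowest in WT replicate 3. The macrophage and monocyte score was 5.76, 5.998 and 5.07 in WT and 5.20, 5.95 and 5.31 in KO, so it too was lowest in WT replicate 3. Of its 14 genes 2 were highest in WT replicate 1 and 4 lowest in WT replicate 3. The part of any of these cells in the level of Il1b was not tested.

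**Figure D4:**
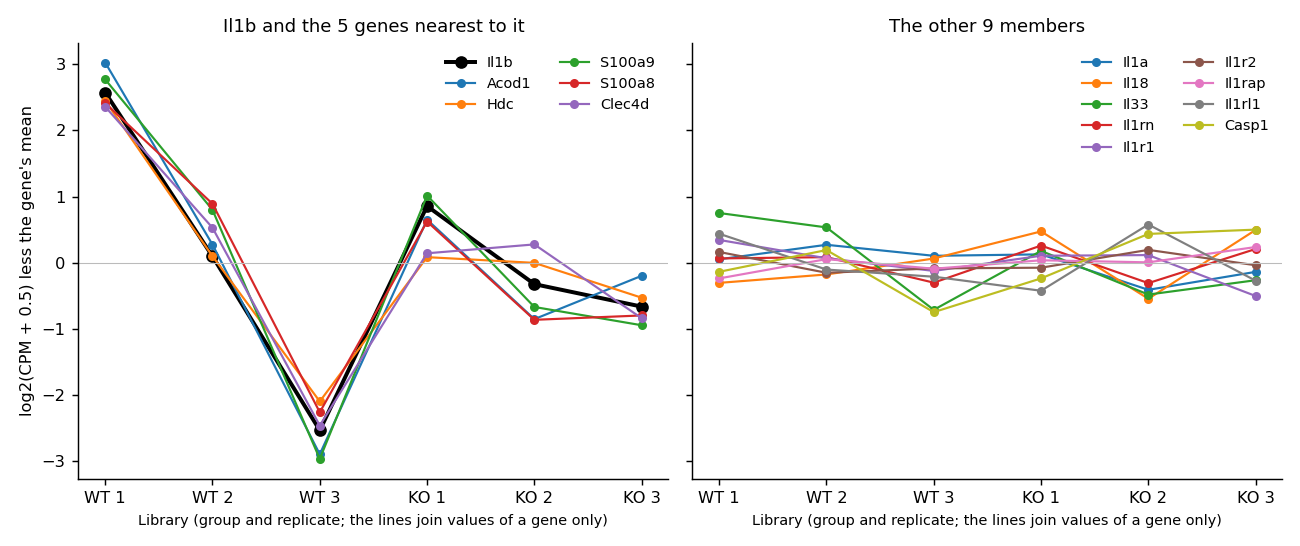
Level in each library relative to the gene's own mean, as log2(CPM + 0.5), for Il1b with its 5 nearest genes (left) and for the other 9 members (right); lines only join the points of a gene. Il1b and its neighbours are higher in WT replicate 1 than in WT replicate 3 by 4.55 to 5.93, whereas no other member spans more than 1.46. In WT replicate 3 Acod1 and Clec4d rest on 1 and 2 implied reads, so the size of their spans depends on the added 0.5 CPM.

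The other members kept to other genes. Serpinb1a, an inhibitor of neutrophil proteases, was nearest to Il33 (RMS 0.104), at 43.3, 46.8 and 18.1 CPM in WT against 34.1, 19.9 and 23.2 CPM in KO. Urah (0.132), Cd300ld (0.146), Ipcef1 (0.158) and Car9 (0.162) followed. Ipcef1 rests on 6 to 17 and Car9 on 2 to 11 implied reads per library, so their patterns depend in part on the added 0.5 CPM. Ivl, the cornified envelope gene involucrin and one of the keratinocyte markers, was nearest to Il18 (0.0566), and the next gene stood at 0.117. Ivl was at 50.1, 61.2 and 68.4 CPM in WT against 86.6, 42.6 and 91.96 CPM in KO, so both genes had their lowest value in KO replicate 2 and their highest in KO replicate 3. Psmb8, an immunoproteasome subunit, was nearest to Casp1 (0.0697), at 17.7, 20.7 and 10.4 CPM in WT against 15.0, 25.8 and 23.8 CPM in KO. The nearest genes of the rest were Arhgap25 for Il1a, Exoc6b for Il1rn, Cpne8 for Il1r1, Mycbp for Il1r2, Slc22a4 for Il1rap and Arhgef15 for Il1rl1, at 0.0295 to 0.0866. For genes with little spread a small distance is easily met, and over 6 libraries these are descriptions.

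Further genes of the pathway were taken from lists that, like the members, were chosen with earlier results of these data known. Of 12 other IL-1 family genes 10 were in the table and tested (Il1rapl1 and Il1rapl2 were not analysed here), and 0 reached an unadjusted p below 0.05 in either direction in limma, with a median log2 difference of 0.073. Il18r1, the IL-18 receptor chain, had the largest difference at -0.81 (unadjusted p = 0.0644), with 4.60, 10.2 and 4.78 CPM in WT above 2.28, 3.64 and 4.11 CPM in KO. It was the only gene of this list (1 of 10) whose groups did not overlap, beside 7.84% of all genes tested. Its KO values rest on 15, 13 and 14 implied reads, and its difference was -0.47 without WT replicate 2. The keratinocyte cytokine genes Il1f6 and Il1f8, which encode IL-36 alpha and IL-36 beta, had differences of 0.76 and 0.49 with overlapping groups. Without KO replicate 1 these were 0.25 and 0.23, and without WT replicate 3 that of Il1f6 was 0.18. Il1rl2 (the IL-36 receptor), Il1f5 (its antagonist) and Il1f9 (IL-36 gamma) had the highest mean CPM of the list, at 118, 109.9 and 68.9.

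The 22 genes of IL-1 receptor signalling, which include NF-kappaB subunits and MAP kinases, were the steadiest list. All were tested, 0 reached an unadjusted p below 0.05 in either direction in limma, the median log2 difference was 0.033, and the differences ran from -0.13 to 0.26. The largest were those of Tab1 (0.26, and 0.080 without KO replicate 2), Irak2 (0.20, and 0.085 without WT replicate 3) and Irak1 (0.19), a kinase adaptor and 2 receptor-associated kinases. Tollip, an inhibitor of IRAK signalling, was at 203 to 219 CPM in WT against 197 to 224 CPM in KO. Tab2 and Mapk14, which encodes the p38 kinase, had differences of 0.024 and 0.038.

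Of 19 genes of inflammasomes and cytokine processing 15 were in the table and 14 were tested (Nlrc4 was below the filter, and Card18, Ctsg, Elane and Prtn3 were not analysed here). None reached an unadjusted p below 0.05 in either direction in limma, and the median log2 difference was -0.060. Nlrp3, the sensor that activates caspase-1, was at 35.8, 9.56 and 2.80 CPM in WT and at 5.16, 4.76 and 2.35 CPM in KO. Like Il1b it was highest in WT replicate 1, and its log2 difference was -1.28 (SE 0.78, unadjusted p = 0.140). This was -0.39 without WT replicate 1 and -2.12 without WT replicate 3. Casp12 and Casp4 had differences of -0.48 and -0.35 (-0.12 and -0.15 without KO replicate 1), and the abundant genes Txnip, Nek7 and Nlrp10 had -0.059, -0.061 and 0.14.

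The median of genes that IL-1 and NF-kappaB induce moved most with WT replicates 1 and 3, in opposite directions. Of 26 genes 24 were tested (Ccl20 and Csf3 were below the filter), and 2 were lower and 0 higher at an unadjusted p below 0.05 in limma, beside 1.82% lower among all genes. Neither passed the adjustment. The median log2 difference was -0.28 with all libraries, and 0.032 with the hair follicle score as covariate. It was 0.31 without WT replicate 1, with 7 of 22 tested genes lower and 15 higher in sign (8359 and 5919 among all genes). It was -0.72 without WT replicate 3, with 24 of 25 lower and 1 higher (8073 and 6184 among all genes). The 2 were Nfkbia, the inhibitor of NF-kappaB, at 168, 145 and 110 CPM in WT against 131, 83.5 and 75.2 CPM in KO (log2 difference -0.57, SE 0.23, unadjusted p = 0.0425), and Tnfaip3, which encodes the feedback inhibitor A20, at 83.0, 58.6 and 47.8 CPM in WT against 42.6, 48.2 and 36.4 CPM in KO (-0.54, SE 0.21, unadjusted p = 0.0342). Both inhibitors are themselves targets of NF-kappaB, and their WT and KO values overlapped. Sod2, the third of high level, had a difference of -0.25 (-0.062 without WT replicate 1).

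Within the induced list the same libraries stood at the ends as for Il1b. Of its 24 tested genes 21 (87.5%) were highest in WT replicate 1 and 18 (75%) lowest in WT replicate 3, where 18.01% and 18.2% of all tested genes were, and 3 and 3 of the 10 members. Hdc, which was among the genes nearest to Il1b, belongs to this list, and no test was made of these positions. The neutrophil attractant gene Cxcl2 was at 36.8, 3.05 and 0 CPM in WT against 2.12, 0 and 2.64 CPM in KO, and Cxcl3 and Ccl4 also had most of their reads in WT replicate 1. The log2 differences of Cxcl2, Cxcl3 and Ccl4 were -1.33, -1.28 and -1.32 with all libraries, and 0.27, -0.20 and -0.36 without WT replicate 1, where the last pair fell below the filter. The number of induced genes lower at an unadjusted p below 0.05 changed with the libraries kept. It was 0 of 22 without WT replicate 1, beside 353 of 14278 among all genes. It was 0 of 25 without WT replicate 2 (147 of 14309 among all genes) and 0 of 24 without KO replicate 3 (302 of 14315). It was 1 of 24 without KO replicate 1 (201 of 14330 among all genes) and 1 of 24 without KO replicate 2 (382 of 14283). Without WT replicate 3 it was 10 of 25, beside 395 of 14257 among all genes.

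**Figure D5:**
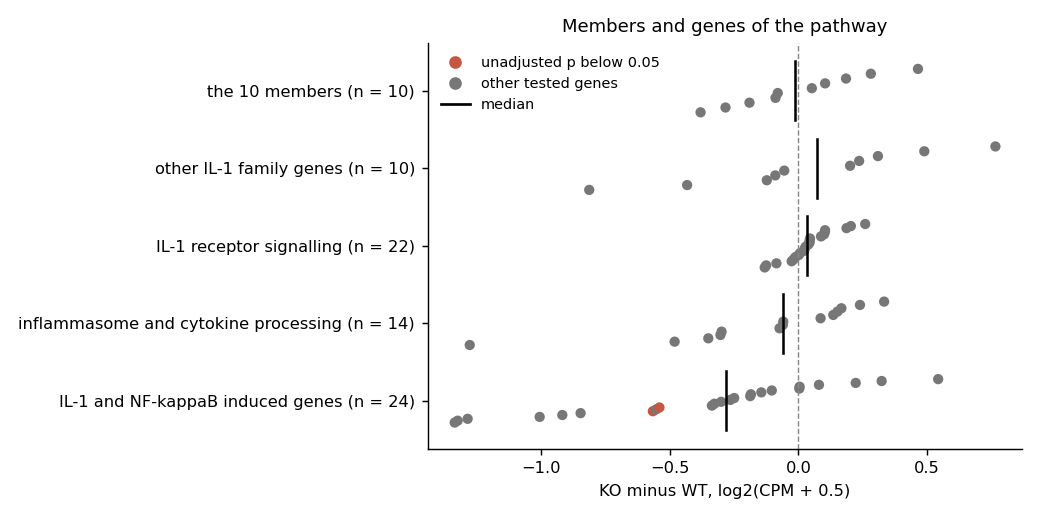
Log2 difference between KO and WT skin (KO minus WT) of each tested gene of the 10 members and of the 4 pathway lists, with the median of each as a black line and genes at an unadjusted p below 0.05 in red. The medians are -0.014 for the members and 0.073, 0.033 and -0.060 for the next 3 lists. For the induced genes the median is -0.28 (0.31 without WT replicate 1 and -0.72 without WT replicate 3), and their 2 red points are Nfkbia and Tnfaip3.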

How the data were processed

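Punches of bitten ear skin from 3 WT and 3 KO mice were sequenced. The authors trimmed the reads, aligned them to mm10 with STAR 2.7.3a and quantified genes in Partek Flow by expectation maximization, which can divide a read among genes. The values deposited by the authors are CPM, each gene's count divided by the library total, plus an offset of 0.0001. Depth was implied from the smallest step between values: 91.9% to 92.6% of values under 20 reads lay within 0.1 of a whole read, so no count model was the main test. KO and WT were compared in limma 3.58.1 (R 4.3.3; eBayes with trend) on log2(CPM + 0.5) over the 14306 genes whose mean reached 1 CPM, with Benjamini-Hochberg adjustment over all of them, and 1361 genes were not tested. Intervals are at 95%, and floors cover counting error only. The fit was checked on simulated counts with known changes. These held no marker differences between libraries of a group, so the check does not cover spread of the kind seen here. Ratios were compared by two-sided exact permutation tests in scipy 1.17.1. Alternatives were other pseudocounts (0.1, 2), filters, scalings and limma settings, voom on implied reads, a replicate block, marker scores as covariates and single libraries left out. Levels per kb and spreads without single libraries were added after the data had been seen. Members and lists were chosen with earlier results of these data known. Beside the members, genes were named by a rule: of each pathway list those at an unadjusted p below 0.05, the 3 of largest difference and the 3 of highest mean CPM, the 5 nearest genes of Il1b and Il33, and the nearest gene of each other member. Hcar2 and other leading markers outside the results were left out, and single markers named as at 0 or not analysed lie outside this rule. Listed gene ends were lowered by 1. All value columns were used.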

Additional observations from a re-analysis of the deposited data

How the results depend on the processing

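Over 18 alternatives the 10 members gave 180 values, of which 167 stayed on the same side of 0 and of the threshold, 13 changed direction and 0 passed the adjustment, the smallest adjusted p being 0.307. The log2 difference of Il1b was 0.42 with voom on implied reads, 0.22 and 0.94 with a covariate, the neutrophil and the hair follicle score, and without single libraries it ran from -1.38 to 1.18. Ranges without single libraries also crossed 0 for Il1rn (-0.022 to 0.28), Il1r1 (-0.30 to 0.014), Il1r2 (-0.032 to 0.15) and Il1rl1 (-0.39 to 0.12). Il33 was nearest to 0 with the hair follicle score as covariate (-0.00038). List medians without single libraries ran from -0.11 to 0.13 for the members, -0.080 to 0.29 for the other IL-1 family genes, -0.0076 to 0.064 for receptor signalling, -0.22 to 0.070 for inflammasome genes and -0.72 to 0.31 for induced genes, so that no list kept its sign. Unless a value shows it, the cause was not tested.

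Members lower at an unadjusted p below 0.05 numbered 0 to 1 without single libraries (Il33 without WT replicate 3), as did members higher (Il18 without KO replicate 2). Over all genes, lower genes numbered 437 with the neutrophil and 565 with the hair follicle score, and 147 to 395 without single libraries. Higher genes numbered 232 with quantile normalization, 256 with the neutrophil and 302 with the hair follicle score, and 89 to 313 without single libraries. After adjustment 0 genes were lower with voom, 3 were lower and 6 higher with the hair follicle score, and 0 to 2 lower and 0 to 14 higher without single libraries, where WT replicates 2 and 3 gave the extremes.

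In the other IL-1 family list, 1 of 10 genes was higher with the neutrophil score, beside 256 of 14306 among all genes. With the hair follicle score 4 of 10 were higher, beside 302 of 14306. Without single libraries 0 to 1 were lower and 0 to 2 higher, where all genes gave 147 to 395 and 89 to 313. Among 14 inflammasome genes 1 was lower with the neutrophil score (437 among all genes) and 1 higher with the hair follicle score (302 among all genes). Without single libraries 0 to 1 of them were lower and 0 to 1 higher. Of 24 induced genes 4 were lower in KO with the neutrophil score, beside 437 of 14306 among all genes. The number was 1 with median-of-ratios rescaling (215 among all genes) or voom (295). It was 0 with quantile normalization (193 among all genes), without the trend (324) or with the hair follicle score (565). Without single libraries it was 0 to 10. Induced genes higher numbered 1 with either score and 0 to 1 without single libraries. The difference in log2 ratio ran from -1.01 to 1.36 for Il1rn to Il1b, -0.16 to 0.68 for Il1rl1 to Il33 and -1.50 to 1.08 for Il1a to Il1b without single libraries. Adipoq no longer passed with voom or without WT replicate 2 (-7.88 and -5.94).

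With the replicate number as a block, 414 of 14306 genes were lower and 177 higher at an unadjusted p below 0.05. Lower genes were 3 of 24 in the induced, 1 of 14 in the inflammasome and 1 of 10 in the other IL-1 family list. The block changed no call of a member. WT and KO libraries of the same number correlated at 0.376, -0.306 and -0.222 in their deviations from the group means, and WT replicates 2 and 3 correlated best with KO replicates of another number, so they are taken to share only a number.

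Among the members, depth limits Il1b in WT replicate 3, Casp1 and Il1rl1 most, at 9, 23 to 38 and 22 to 45 reads.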

Other observations

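A quantity chosen after the data had been seen sets Il1b against the neutrophil markers in the same library. The log2 level of Il1b less the neutrophil score was 1.16, 0.21 and 0.012 in WT against 0.83, 0.71 and 0.31 in KO replicates 1, 2 and 3. It spanned 1.15 over the 6 libraries, beside 5.11 for Il1b and 3.96 for the score alone. Acod1, Clec4d, S100a8 and S100a9, which were among the genes nearest to Il1b, are in the marker list, so the values are not independent of that choice, and no test was made.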
